A study of Canis lupus familiaris with 22 samples.

Results

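BIRC5, CCNB2 and CCND1, which encode survivin, cyclin B2 and cyclin D1, were followed in malignant and benign mammary tumours of dogs and in mammary glands without a tumour. The 3 genes were measured by 5 of the 43603 probes of the Agilent canine array. These probes were chosen because each targets a RefSeq transcript of these genes, and by no measured value. The genes themselves were chosen with earlier results of these data known. They are 3 of the 1458 genes on the array that could be given a symbol here. BIRC5 (transcript NM_001003348) and CCND1 (NM_001005757) had 1 probe each and CCNB2 (NM_001313810) had 3, and all 5 probes passed the filter on dim probes, which kept 35314 probes.

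Survivin belongs to the inhibitor of apoptosis proteins and is also a subunit of the chromosomal passenger complex, which guides the attachment of chromosomes to the spindle and the division of the cell body. Cyclin B2 is a partner of the kinase CDK1 and accumulates before mitosis, so that transcripts of both genes are abundant in cells that are about to divide. Cyclin D1 acts earlier, as the partner of CDK4 and CDK6 that releases the RB brake in G1, and in mammary epithelium its gene is a known target of growth factor and oestrogen signals, so that its level follows the entry into the cycle and not the passage through mitosis.

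Total RNA of each tissue was labelled with Cy3 and hybridized to arrays named a and b for every dog. The malignant group (title Malignant, diagnosis malignant) held 5 dogs with 9 arrays, the benign group (title Benign, diagnosis benign) 3 dogs with 6 arrays, and the healthy group (source dog healthy mammary tissue) 2 dogs with 4 arrays. The tumours had arisen spontaneously, no treatment or genotype is given in the labels of any group, and ages are not used here. Malignant tumours of the study were carcinomas of several kinds and tumours of myoepithelial and connective tissue origin. Whether their numbers match the dog numbers used here is not stated. The study's methods describe further benign and healthy dogs, which were not analysed here. Malignant dog 6 and the second array of malignant dog 5 entered only through a table of signals without background correction.

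A level is the log2 processed signal minus the 75th percentile of its array, averaged over the arrays of a dog, so that 0 is the 75th percentile and 1 unit is a doubling of signal. Levels of different probes depend on the probe and were not set against each other. Between 62.2% and 83.2% of the probes of an array were well above background. The median was 67.8% in healthy arrays (62.2% to 71.4%), 72.5% in malignant arrays (63.7% to 76.4%) and 73.8% in benign arrays (71.5% to 83.2%). The lowest array was the b array of healthy dog 1, and the part of these shares in the comparisons was not tested. The a and b arrays of a dog correlated across probes, which are not independent, at 0.981 to 0.991. The labels call the a and b arrays biological duplicates, yet nothing ties them to separate pieces of tissue, so that all tests were run over dogs. The healthy arrays held transcripts of exocrine pancreas. The summed linear level of the 5 pancreas markers with a symbol, of 20 listed, was 2893 in healthy dog 1 and 580 in healthy dog 2, and lay between 1.12 and 2.20 in malignant and between 1.22 and 2.13 in benign tumours, where in each diagnosis 1 of the 5 was above background on no array. These sums moved with every comparison against healthy tissue below, and their part in those comparisons was not tested. The number of arrays and dogs limits the precision of every value.

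BIRC5 was higher in every tumour than in both healthy dogs, by a mean of 6.06-fold. The probe was well above background on all 19 arrays. In malignant dogs 1 to 5 its level was 1.57, 0.33, 1.79, 1.47 and 1.25. In benign dogs 1 to 3 it was -0.33, 1.98 and 2.28, and in healthy dogs 1 and 2 it was -1.01 and -1.60. The tumours did not overlap with healthy tissue, whereas malignant and benign tumours overlapped fully, with benign dogs 2 and 3 at the top and benign dog 1 at the bottom of the order. The a and b arrays of a dog differed by at most 0.29, and 4 of the 9 steps between neighbours in the order of dogs were smaller than that, those from benign dog 2 down to malignant dog 5.

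For BIRC5 the study also used a pair of primers for quantitative PCR, shown because they are the only sequences of a member at hand. They are written from 5′ to 3′ in lower case and no result here rests on them. Sequences of the array probes were not used here.
BIRC5 forward: gcccagtgtttcttctgctt
BIRC5 reverse: ccagatgaatgttttttatgc

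Group means of BIRC5 were 1.28 ± 0.565 (SD, n = 5) in malignant tumours, 1.31 ± 1.43 (SD, n = 3) in benign tumours and -1.31 ± 0.412 (SD, n = 2) in healthy tissue. Malignant tumours exceeded healthy tissue by 2.59 ± 0.708 (SE) on the log2 scale (95% interval 1.02 to 4.15), with an adjusted p of 0.413 from limma. In benign tumours the difference was 2.61 ± 0.773 (SE, 95% interval 0.90 to 4.32), at an adjusted p of 0.485 from limma. Neither passed the threshold of 0.05 over all probes. For malignant and benign tumours together the log2 fold change was 2.60 ± 0.674 (SE), with limma giving an adjusted p of 0.288, and an exact two-sided permutation test of the 8 tumours against the 2 healthy dogs gave p = 0.0444, the smallest value this design allows. Without benign dog 1 the adjusted p from limma was 0.0377 at a log2 fold change of 3.01, and over the other dogs left out in turn it lay between 0.264 and 1.00.

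CCNB2 was likewise higher in every tumour than in both healthy dogs, on the 2 of its 3 probes that were well above background in a healthy dog. On its brightest probe, A_11_P153858, malignant dogs 1 to 5 had levels of 0.67, -0.44, 1.99, 1.17 and -0.99. Benign dogs 1 to 3 had levels of -1.98, 1.72 and 2.22. Healthy dog 2 was at -2.95 on arrays that were well above background, while both arrays of healthy dog 1, at a mean of -6.11, were not well above background. Every tumour lay above both healthy dogs, and benign dog 3, malignant dog 3 and benign dog 2 were the highest. Benign dog 1 was the lowest tumour, as it was in BIRC5, and stood 0.97 above healthy dog 2, a step that was larger than the largest difference of a and b arrays of a dog, 0.80.

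Group means on this probe were 0.48 ± 1.20 (SD, n = 5) in malignant tumours, 0.65 ± 2.29 (SD, n = 3) in benign tumours and -4.53 ± 2.23 (SD, n = 2) in healthy tissue. The log2 fold change was 5.01 ± 1.24 (SE, 95% interval 2.27 to 7.75) in malignant tumours against healthy tissue, with an adjusted p of 0.291 from limma. In benign tumours it was 5.18 ± 1.35 (SE, 95% interval 2.20 to 8.17), with an adjusted p of 0.356 from limma. Over all tumours it was 5.10 ± 1.18 (SE), with limma giving an adjusted p of 0.185, a 34.2-fold difference that rests in part on the signals of healthy dog 1 at background. Against healthy dog 2 alone, which measured the probe, it was 3.52. Without healthy dog 2 the adjusted p from limma was 0.0403, but the fold of that fit stands against signals at background and is no measured fold. Without benign dog 1 the value was 5.75 and the adjusted p 0.0311, whereas with the normexp background correction the log2 fold change was 2.57 and with the table of signals of the same dogs 3.06. Those last values stood against medians over all probes of -0.37 and -0.25, where the median of the main values was 0.06. The exact two-sided permutation test of tumours against healthy dogs gave p = 0.0444 on this probe and on A_11_P0000023521.

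The 2 dimmer probes of CCNB2 differed in how far healthy tissue could be measured. On A_11_P0000023521 the tumours ran from -3.41 in benign dog 1 to 0.59 in benign dog 3, and healthy dogs 1 and 2 were at -6.11 and -4.39, again with both arrays of healthy dog 1 not well above background. Its log2 fold change over all tumours was 4.20 ± 1.02 (SE), at an adjusted p of 0.227 from limma. On A_11_P176838 none of the 4 healthy arrays was well above background, so that this probe passed the filter through the tumours and could differ in 1 direction only. It is given as a description and left out of the counts below. It was well above background on 8 of 9 malignant and 5 of 6 benign arrays, the exceptions being malignant dog 5 and 1 array of benign dog 1, whose arrays differed by 2.34. The healthy level is then only bounded, by the lowest signal of each array among probes well above background or by the probe's own signal where that was higher. Against this bound the mean level was 4.07-fold higher in malignant tumours and 9.11-fold higher in benign tumours, and no test was run against the bound. All tumours together were 5.50-fold higher against it. Tumour arrays that were not well above background entered with their own signals, so that these folds are not strict lower limits. Over the alternative settings named below, the log2 fold change of this probe fell as low as 0.20 in malignant and 0.48 in benign tumours. With the normexp correction the log2 fold change of all tumours was 1.54 on A_11_P0000023521 and 0.34 on A_11_P176838.

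CCND1 gave another order of the dogs, in which tumours and healthy tissue overlapped. The probe was well above background on all 19 arrays. Malignant dogs 1 to 5 had levels of 2.87, 2.12, 2.47, 3.21 and 0.95. Benign dogs 1 to 3 had levels of 2.60, 1.06 and 1.19, and healthy dogs 1 and 2 of 0.85 and 1.06. The tumours fell on both sides of a gap of 0.93 units, with 5 tumours at 2.12 or above and 3 at 1.19 or below. Those 3 tumours, malignant dog 5 and benign dogs 2 and 3, were within 0.51 of both healthy dogs, the largest difference between the a and b arrays of a dog. Of the 9 steps in the order of all dogs the gap was the only one larger than that. The 0.51 came from malignant dog 4, and the arrays of every other dog with both differed by at most 0.17. Steps of 0.34, 0.26 and 0.36 among the 5 high tumours were larger than 0.17. Benign dogs 2 and 3, the highest or nearly the highest tumours in BIRC5 and CCNB2, were thus near the level of healthy tissue in CCND1. Benign dog 1, the lowest tumour in BIRC5 and CCNB2, was among the 5 high ones.

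Group means of CCND1 were 2.32 ± 0.869 (SD, n = 5) in malignant tumours, 1.62 ± 0.857 (SD, n = 3) in benign tumours and 0.96 ± 0.149 (SD, n = 2) in healthy tissue. Above both healthy dogs lay 4 of 5 malignant and 2 of 3 benign tumours. The log2 fold change against healthy tissue was 1.37 ± 0.660 (SE, 95% interval -0.09 to 2.82), at a limma adjusted p of 0.865, in malignant tumours. It was 0.66 ± 0.720 (SE, 95% interval -0.93 to 2.25), at a limma adjusted p of 0.929, in benign tumours. The exact two-sided permutation test of all tumours against the healthy dogs gave p = 0.133, so that a difference of CCND1 from healthy tissue was not resolved with these dogs. For all tumours the log2 fold change was 1.01, and its 95% interval ran from -0.37 to 2.40.

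**Figure D1:**
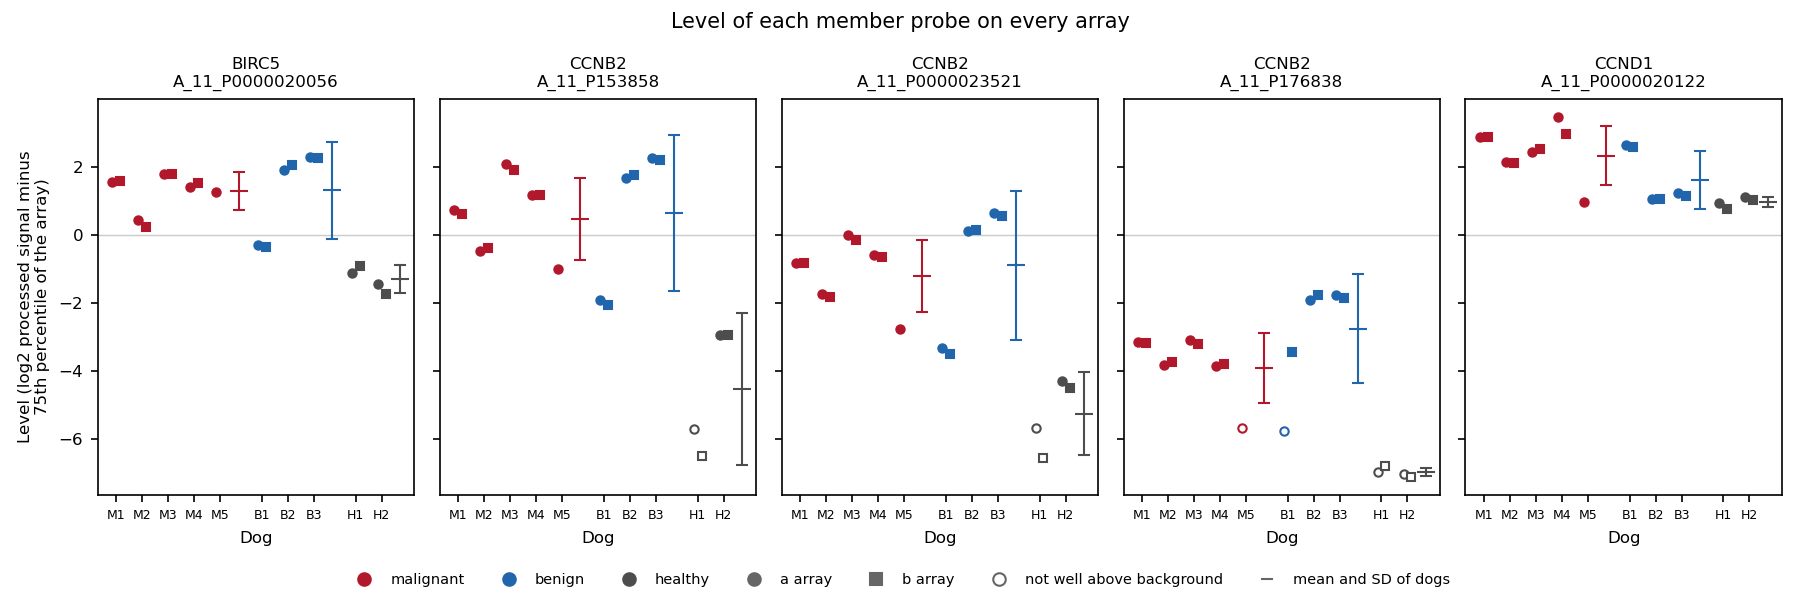
Level of the 5 probes on each of 19 arrays (log2 processed signal minus the 75th percentile of the array; circles a arrays, squares b arrays, open symbols arrays not well above background; bars mean and SD over dogs; M, B and H are malignant, benign and healthy dogs). Every tumour stands above both healthy dogs in BIRC5 and in the 2 brighter probes of CCNB2, and the healthy arrays of the dimmest probe are all open symbols. Malignant dog 5 and benign dogs 2 and 3 are near the healthy dogs in CCND1.

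Set against all probes, the members were not called. Over all probes, and at an adjusted p no higher than 0.05, limma called 0.416% of the 35314 probes in malignant tumours against healthy tissue, 0.379% in benign tumours, 0.442% in both kinds of tumour together and 0% between malignant and benign tumours, and 0 of the 5 probes of the members were among them. Between malignant and benign tumours 637 probes had an unadjusted p no higher than 0.05 in limma. The counts that follow leave out A_11_P176838, which no healthy array measured. With an unadjusted p no higher than 0.05, 3 of the other 4 probes were higher in malignant tumours, where 2.25% of all probes were, 3 were higher in benign tumours, where 3.13% were, and 3 were higher in all tumours, where 3.01% were. The exception was CCND1 each time. All 5 malignant dogs stood above both healthy dogs in 3 of these 4 probes, as in 4.26% of all probes, and all 3 benign dogs did so in the same 3 probes, as in 12.4% of all probes. All 8 tumours did so in those 3 probes, as in 2.72% of all probes. The probes of CCNB2 share a transcript and count as 1 gene, and the comparisons share the 2 healthy dogs. In bulk tissue, more dividing cells and more RNA of these genes per cell cannot be told apart.

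Slides carried tumour and healthy arrays together in 3 cases, and on each of them the tumour arrays stood higher. Malignant dogs 3 and 5 and benign dog 2 had no array on these slides, so that 2 of the 3 tumours with CCND1 near healthy tissue are not in the values that follow. Within these slides the tumour arrays lay above the healthy arrays by a mean of 1.92, 1.92 and 2.88 in BIRC5. On the brightest probe of CCNB2 the same differences were 3.75, 6.57 and 3.39. The 6.57 stands only against an array of healthy dog 1 that was not well above background, and the 3.75 includes the other such array. In CCND1 the differences were 1.73, 1.73 and 1.19. The lowest tumour array exceeded the highest healthy array of its slide in each of these 9 cases, by 0.11 in the closest, CCND1 on the slide that held benign dog 3. Malignant dog 5 had a slide of its own among the arrays with scanner values, so that slide and dog cannot be told apart for it. The a arrays of benign dogs 2 and 3 shared a slide with those of malignant dogs 3 and 4, and there CCND1 was 1.06 and 1.24 in the benign and 2.44 and 3.46 in the malignant dogs.

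Malignant and benign tumours were compared to ask whether any of the genes separates the diagnoses, and at this number of dogs none was shown to. The log2 fold change of malignant over benign tumours was -0.025 ± 0.618 (SE, 95% interval -1.39 to 1.34) for BIRC5. It was -0.17 ± 1.08 (SE, 95% interval -2.56 to 2.22) for the brightest probe of CCNB2. For CCND1 it was 0.71 ± 0.576 (SE, 95% interval -0.57 to 1.98). The adjusted p from limma was 1.00 for each, and the exact two-sided permutation test of 5 against 3 tumours, which can reach 0.0357, gave 0.929, 0.893 and 0.357. Before adjustment, 0 of the 5 probes were higher in malignant tumours at p up to 0.05, as 0.66% of all probes were. These intervals leave room for differences of more than 2-fold in either direction for BIRC5 and CCNB2. The SD among the 3 benign dogs was 1.43 against 0.565 in malignant dogs in BIRC5, 2.29 against 1.20 in CCNB2 and 0.857 against 0.869 in CCND1, and these spreads were not tested against each other.

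**Figure D2:**
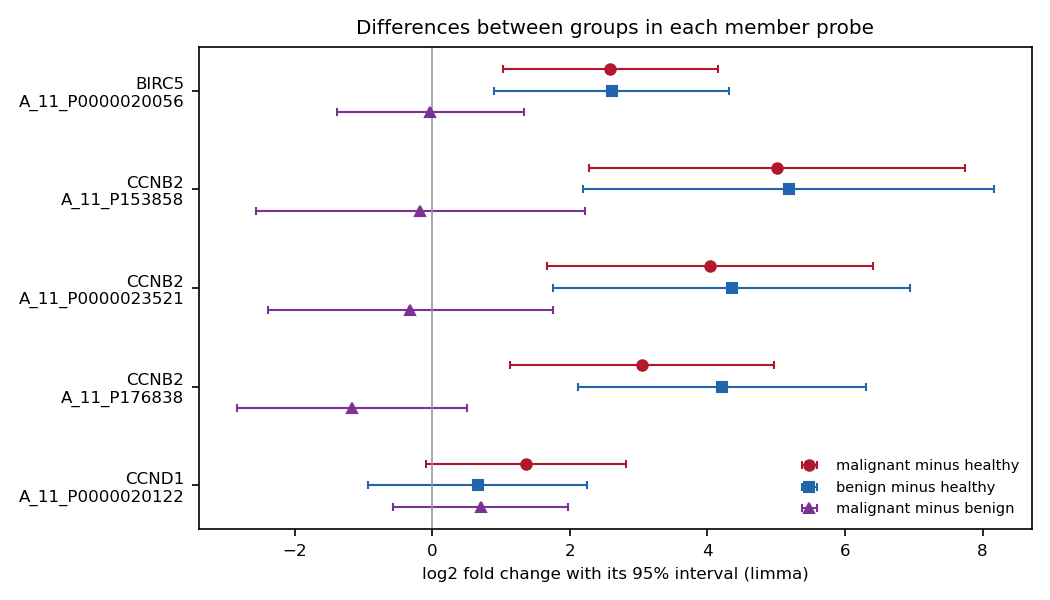
log2 fold change of each probe with its 95% interval from limma, for malignant minus healthy, benign minus healthy and malignant minus benign tissue. Intervals of BIRC5 and CCNB2 against healthy tissue lie above 0 and those of CCND1 include 0, as do all 5 intervals between the diagnoses, whose centres run from -1.16 for the dimmest probe of CCNB2, unmeasured in healthy tissue, to 0.71 for CCND1.

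BIRC5 and CCNB2 ordered the tumours alike, and no relation of CCND1 to either was resolved. Over the 8 tumours the levels of BIRC5 and the brightest probe of CCNB2 gave a Pearson r of 0.90 (exact permutation p = 0.00352) and a Spearman rho of 0.93 (exact permutation p = 0.00223). Adjusted over the 3 pairs of members, these were 0.0106 and 0.0067. Without benign dog 1 and malignant dog 2, the tumours farthest from the median of BIRC5, r was 0.86 and rho 0.89 over 6 tumours, with exact permutation p values of 0.0139 and 0.0333. After the mean of each diagnosis was taken off, a step chosen after the data had been seen, r was 0.90 and rho 0.93. Of the tumours left out in turn, malignant dog 5, with BIRC5 at 1.25 and CCNB2 at -0.99, raised r the most. Without it r was 0.98, while rho stayed at 0.93. With A_11_P0000023521 in place of the brightest probe r was 0.88 and rho 0.95, and with the dimmest probe, A_11_P176838, r was 0.65 (exact permutation p = 0.096) and rho 0.88. In the 5 malignant tumours alone r was 0.69 and rho 0.80, given without a test. The points share their arrays, so that both genes of a tumour carry the same scaling, and of the 24737 probes well above background on every tumour array, 0.23% had an r with BIRC5 at least as high as that of CCNB2.

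CCND1 gave an r of -0.33 with BIRC5 (exact permutation p = 0.443, 0.664 adjusted over 3 pairs) and a rho of -0.24 (exact permutation p = 0.582, 0.873 adjusted). With CCNB2 its r was -0.10 (exact permutation p = 0.806, unchanged by adjustment) and its rho -0.07 (exact permutation p = 0.882). Without benign dog 1 and malignant dog 2, the tumours farthest from the median of BIRC5, the r with BIRC5 was -0.32 over 6 tumours. Without benign dog 1 and malignant dog 5, the tumours farthest from the median of CCNB2, the r with CCNB2 was -0.38 over 6 tumours. The r of CCND1 with BIRC5 was reached or exceeded by 83.2% of all probes compared with BIRC5, and that of CCND1 with CCNB2 by 61.0% of those compared with CCNB2. The 5 malignant tumours alone gave r values of 0.33 with BIRC5 and 0.75 with CCNB2, without a test. Since the tumours stood on both sides of a gap in CCND1 and neither side held the 6 tumours asked for here, no r was computed within a side. Whether the correlations of the 3 pairs differ from each other was not tested.

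**Figure D3:**
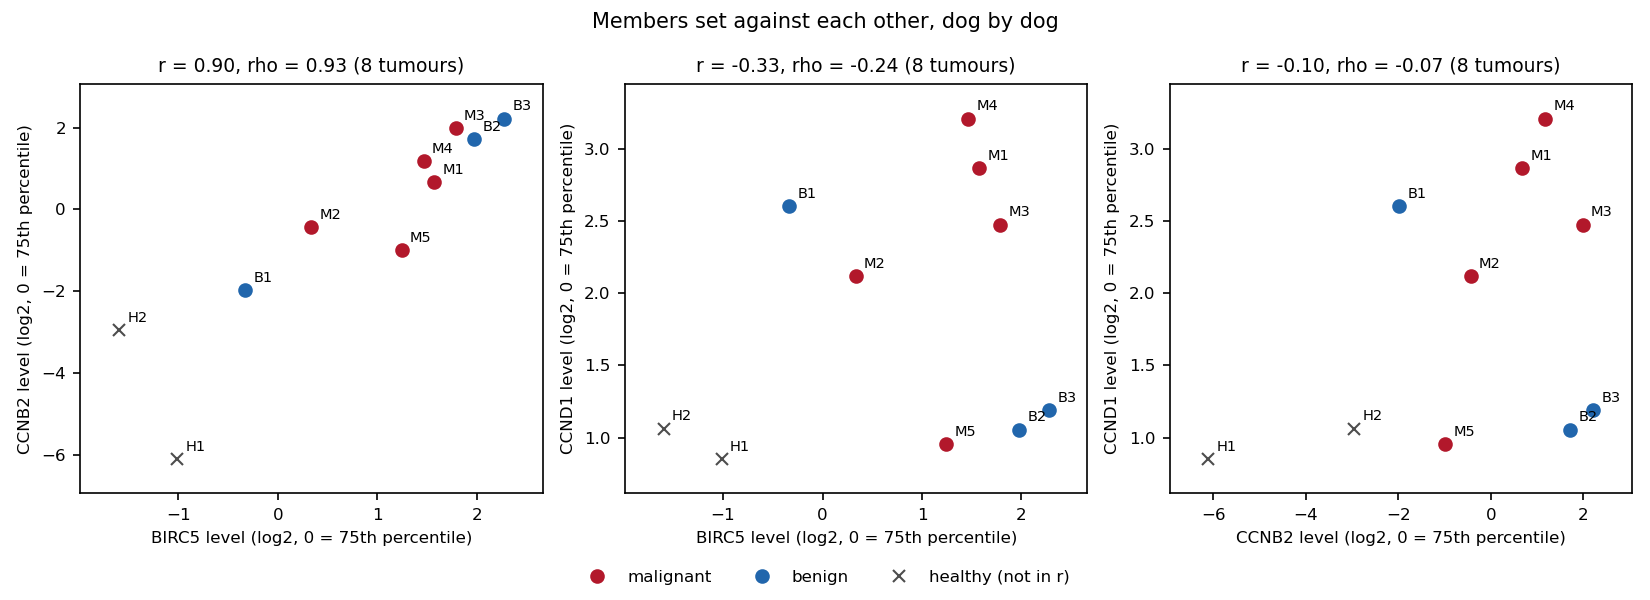
Level of each member against each other member (log2, 0 is the 75th percentile of an array) in 5 malignant, 3 benign and 2 healthy dogs, with Pearson r and Spearman rho over the 8 tumours. BIRC5 and CCNB2 line up from benign dog 1 to benign dog 3, whereas in the panels of CCND1 malignant dog 5 and benign dogs 2 and 3 lie low, beside the healthy dogs.

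Genes that ranked the tumours most like each member were taken from 933 genes with a symbol and a probe well above background on every tumour array, with Pearson's r over the 8 tumours as the measure and no test. For BIRC5 these included ASPM (r = 0.92), a protein of the spindle poles, SNRPD1 (0.92), a core protein of the spliceosome, TYMS (0.92), which makes thymidylate for DNA synthesis, and NME1 (0.90), a nucleoside diphosphate kinase. For CCNB2 they included UBE2S (0.95), which extends ubiquitin chains for the anaphase-promoting complex, the small GTPase RAC1 (0.87), the actin regulator VASP (0.86) and SNRPD1 (0.86). SNRPD1 stood in both sets. For CCND1 they were CAPS (0.94), a calcium-binding protein, CLDN3 (0.86), a protein of tight junctions, CPT1A (0.85), which brings fatty acids into mitochondria, WFDC2 (0.82), a secreted protein of epithelia, and ZBTB4 (0.80), a zinc finger protein that binds methylated DNA. No gene of the CCND1 set stood in the other sets.

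Against healthy tissue the neighbours of BIRC5 and CCNB2 differed in size. ASPM was above both healthy dogs in 8 of 8 tumours with a log2 fold change of 3.16 ± 0.913 (SE) and a limma adjusted p of 0.383. UBE2S had a log2 fold change of 1.83 and was above both healthy dogs in 6 of 8 tumours. TYMS, at 0.08, was above both healthy dogs in 2 of 8 tumours, so that its likeness to BIRC5 among tumours stood beside no resolved distance from healthy tissue. All 5 neighbours of CCND1 but CAPS had log2 fold changes below 0, from -2.14 for WFDC2 to -0.85 for ZBTB4, while that of CCND1 was 1.01, and none of the neighbours named here was called over all probes.

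Markers of other cell types differed between the same tumours. The summed linear level of the 3 markers of mammary luminal epithelium with a symbol, KRT19, CDH1 and MUC1, of 10 listed, was 48.4, 84.3, 3.53, 97.8 and 0.711 in malignant dogs 1 to 5. It was 120, 21.9 and 17.8 in benign dogs 1 to 3, and 16.7 and 46.0 in healthy dogs 1 and 2. Malignant dog 5, which had the lowest CCND1 of the tumours, also had the lowest sum, and malignant dog 3 had a low sum beside a CCND1 level of 2.47. KRT19, a keratin of luminal cells, was at -3.56 in malignant dog 5 and between 1.20 and 6.67 in the other tumours. Malignant dog 5 also stood apart in the summed level of the 3 adipocyte markers with a symbol, of 8 listed, at 52.2 against 0.861 to 3.44 in the other tumours. ADIPOQ (4.12) and PPARG (5.09) carried that sum, while LEP, at -0.46, lay within the -1.50 to 0.24 of the other tumours. Malignant dog 2 stood apart in the milk proteins CSN2 and LALBA, with 621 against 0.0191 to 4.15. The part of these cell types in the levels of the 3 genes was not tested.

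Other genes of cell division and cell survival came from a list of 122 genes in 7 groups, of which 20 could be named and tested. None was called in any comparison. In all tumours against healthy tissue the median log2 fold change of the 20 genes was 0.19, against 0.06 over all probes, 13 of the 20 were above 0, and 1 was higher at an unadjusted p of at most 0.05 and none lower. That gene was CCNB3, a B-type cyclin like CCNB2 and the only named gene of the cyclins and kinases of G2 and M phase. It was above both healthy dogs in 8 of 8 tumours, with levels from -4.29 in benign dog 1 to -0.30 in malignant dog 1 and of -4.90 and -4.56 in healthy dogs 1 and 2, which gave a log2 difference of 2.67 ± 0.877 (SE) and a limma adjusted p of 0.507. Its lowest tumour was the same as that of BIRC5 and CCNB2, and 2 of its 4 healthy arrays were well above background. Without healthy dog 1, a setting chosen after the data had been seen, the median of the list was 0.05 and no gene was higher at that unadjusted p, and without healthy dog 2 the median was 0.45 and 1 gene was. By the same unadjusted p, 2 genes of the list were higher in malignant tumours (CCNB3 and CTNNB1), as 2.25% of all probes were. CCNB3 alone was higher in benign tumours, as 3.13% of all probes were. PGR was lower in malignant than in benign tumours, as 404 of the 35314 probes were. The proteins of the chromosomal passenger complex and the spindle, with which survivin works, had no gene with a symbol here among the 23 listed. The cyclins and kinases of G1 and S phase had CDC25A alone, which was well above background on 7 of 19 arrays.

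Inhibitors and regulators of the cycle were measured by 4 genes, none of which passed the test. CDKN2B, an inhibitor of CDK4 and CDK6 and so of the kinases that cyclin D1 activates, had a log2 fold change of 1.15 ± 0.741 (SE), set against healthy tissue in which 1 of 4 arrays was well above background. MDM2, which removes p53, had a log2 fold change of 0.68 and 7 of 8 tumours above both healthy dogs. CDKN1B, an inhibitor of cyclin and kinase pairs, was at -0.77 with 5 of 8 tumours below both healthy dogs, and the DNA damage kinase ATM was at 0.20. TYMS alone stood for replication and nucleotide synthesis. The directions of CDKN2B and MDM2 and that of CDKN1B were opposite, and their adjusted p values from limma lay between 0.815 and 0.856.

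The inhibitor of apoptosis family, to which survivin belongs, and other genes of apoptosis formed a group of 7 tested genes, with a median log2 fold change of 0.17 over all tumours. BIRC3, a family member that binds caspases and TNF receptor complexes, was at 1.06 ± 1.17 (SE), and DIABLO, which antagonizes the family, at 0.95. BAX, which opens the outer membrane of mitochondria, was at 1.04, and BCL2, which restrains it, at -1.17 ± 0.908 (SE), with 5 of 8 tumours below both healthy dogs. Upstream of cyclin D1, 6 genes had a median log2 fold change of 0.11. CTNNB1, which encodes beta-catenin, was at 1.17 ± 0.620 (SE) with 7 of 8 tumours above both healthy dogs, and at an unadjusted p of at most 0.05 in malignant tumours alone. PGR, the progesterone receptor, was at -1.27 with 7 of 8 tumours below both healthy dogs, and the kinase MAPK3 was at -0.77.

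**Figure D4:**
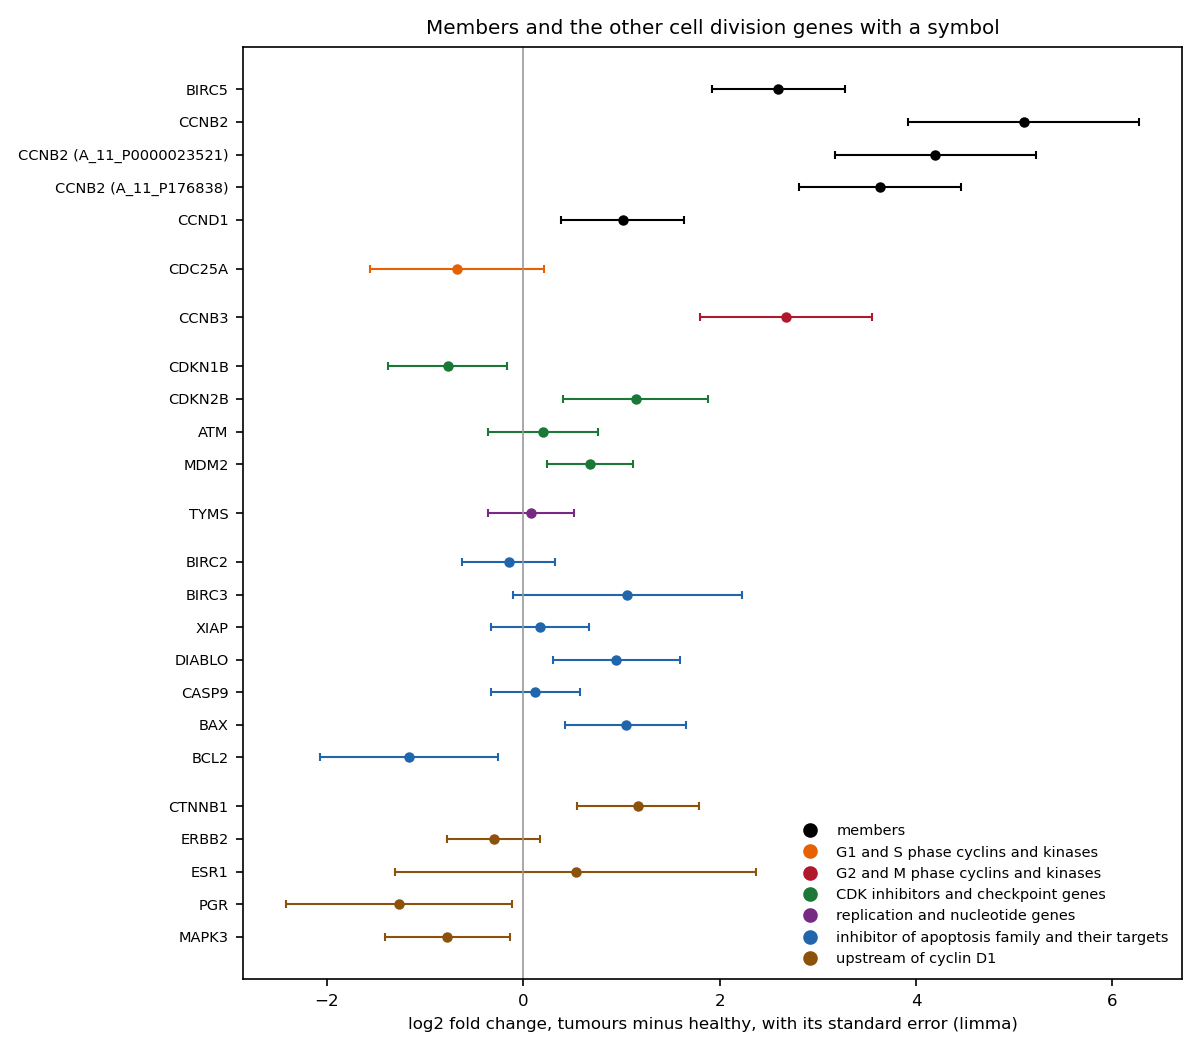
log2 fold change of all tumours minus healthy tissue with its standard error from limma, for the 5 probes of the members and 19 of the 20 other named genes, coloured by group. CCNB3 is the only other gene in the range of BIRC5 and CCNB2, and the remaining genes lie between -1.27 and 1.17 on both sides of 0.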

How the data were processed

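The authors read each array with Feature Extraction 11.5.1.1 by the submitters' processing notes, while the study's methods name another version. Its processed signal is an intensity on a linear scale, with the background subtracted before they deposited it. A second deposited file covers every array with median spot intensity, not corrected for background, and matched the scanner medians exactly in 45220 of 45220 spots on each of 19 arrays. The authors' own normalization is not given in the sources used here, and their methods name a paired t-test. Saturated spots were not found, and 0 value columns stayed unused.

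Deposited intensity values were turned into log2 levels by subtracting each array's 75th percentile over 43603 non-control probes, and levels of a dog's arrays were averaged. The 35314 probes that at least 4 arrays measured well above background entered a single fit of the 3 groups in limma (version 3.58.1, with R 4.3.3 and the package data.table, version 1.17.8), with Benjamini-Hochberg adjustment over all of them and a threshold of 0.05. In it, all tumours stand for the mean of the malignant and benign means. The scripts were tested on simulated data. Exact permutation tests and correlations used scipy 1.17.1, numpy 2.4.6 and pandas 2.3.3 in Python 3.11.15, and figures matplotlib 3.10.9. The 5 probes were tested in 4 comparisons that share dogs, and exact p values were not adjusted. Each numbered dog was taken as 1 animal, and p values measure the spread between these dogs.

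Symbols came from RefSeq genes of assembly UU_Cfam_GSD_1.0 by transcript, which named 2348 of 2441 probes for curated mRNAs and 2353 probes in all. Coordinates were not used here. The genes named were the members, the 5 likest genes of each, and up to 4 genes with the largest change in each group of the list, and genes of the list without a symbol here were not analysed. Some genes that meet this rule are not reported here. The members, lists and tests were chosen with earlier results of these data known. Alternatives were quantile normalization, other centrings, normexp, the table of signals, other filters, 1 probe for each gene, a arrays only, the dog as a random block, the slide, the dog number as a block, only the 2 groups compared, the methods' t-test (run unpaired) and each dog left out.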

Additional observations from a re-analysis of the deposited data

Results flagged for a closer look

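On the dimmest probe of CCNB2, A_11_P176838, malignant dog 5 lay far below the other malignant dogs, at a level of -5.67 against -3.82 to -3.15, with a gap of 0.731 of the range of the 5 dogs, above the critical value of 0.71 of Dixon's criterion. Its array was not well above background there, and chance sets apart about 1 in 20 such groups. On the other probes of the 3 genes no malignant dog passed this criterion, with ratios of 0.627 for BIRC5, 0.516 for CCND1 and 0.273 and 0.365 for the brighter probes of CCNB2.

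Malignant dog 6, measured only in the table of signals without background correction, had levels above both healthy dogs in all 3 genes. BIRC5 was at 0.23 there against -1.25 and -0.78 in the healthy dogs, the lowest but one of the 9 tumours. CCNB2 was at -0.32 against -2.94 and -2.35, in place 6 of 9. CCND1 was at 2.26 against 0.91 and 1.13, in place 5 of 9, among the tumours with high CCND1. With this dog in a fit of that table, the log2 fold change of all tumours was 2.25 in BIRC5, 3.01 in CCNB2 and 1.00 in CCND1. Without it and the second array of malignant dog 5, the same table gave 2.33 in BIRC5 and 3.06 in CCNB2.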

How the results depend on the processing

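Over 22 to 25 alternatives, every log2 fold change of BIRC5, CCND1, the brightest probe of CCNB2 and A_11_P0000023521 against healthy tissue stayed above 0. A_11_P176838, unmeasured in healthy tissue, is left out of this statement. With the dog as a random block over single arrays, BIRC5 (2.60) and CCNB2 (5.10) in all tumours and CCNB2 in malignant tumours (5.02) came below an adjusted p of 0.05 from limma, at 0.0362, 0.0231 and 0.0446. That setting called 273 probes in all tumours, 71 of them higher, against 156 and 1 in the main values. In malignant tumours it called 195, 28 of them higher, against 147 and 0. Without benign dog 1, BIRC5 and CCNB2 in all tumours also came below 0.05, where 185 probes were called, 43 of them higher. In the remaining settings adjusted p values of these results ran up to 1.00. With dogs left out in turn, all tumours against healthy tissue ranged from 2.31 to 3.01 in BIRC5 and from 3.52 to 6.67 in CCNB2, the last against background signals. Malignant minus benign stayed above 0 in CCND1, from 0.43 to 1.20, and below 0 on A_11_P176838, from -2.09 to -0.27, and changed direction in the other probes. With dogs left out it ranged from -0.84 to 0.46 in BIRC5, from -1.49 to 0.61 in CCNB2 and from -1.57 to 0.43 on A_11_P0000023521, and with the slide as a term it was 0.29 in CCNB2 and 0.13 on A_11_P0000023521. The correlation of BIRC5 and CCNB2 kept its sign, from 0.81 to 0.98 with tumours left out, and fell to 0.65 with the dimmest probe of CCNB2. That of CCNB2 and CCND1 ranged from -0.388 to 0.0929 with tumours left out. The causes were not tested. A fit without a healthy dog assumes that the other varies like the tumours. The same dog numbers in different groups were not paired, since deviations of same-numbered dogs correlated at -0.17 to 0.11, and with the number as a replicate block CCNB2 in malignant minus benign tumours was 0.0873, BIRC5 in all tumours 2.19, CCNB2 4.52 and CCND1 1.20, none of them called. Over the whole array, 32 to 950 probes were called in malignant tumours (147 in the main values), 0 to 993 in benign tumours (134), 49 to 1177 in all tumours (156) and 0 to 2 between the diagnoses, in each case the most without healthy dog 2 except in the last, where it was without benign dog 3.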
